A study of Mus musculus with 5 samples.

Results

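Chymotrypsins and pancreatic elastases are serine proteases that acinar cells of the pancreas make for digestion, and 7 of their genes were followed here in newborn mice in which Pdx1 is removed from exocrine tissue. The genes were taken by name: the chymotrypsins Ctrl, Ctrb1 and Ctrc and the elastases Cela1, Cela2a, Cela3a and Cela3b, all 7 measured, among 19938 genes on the array. Whole pancreas was collected at postnatal day 1 from 3 Pdx1cKO mice and 2 control mice, which the series title places in the same litter, and RNA of each was hybridised to its own Mouse Gene 1.0 ST array, so each value belongs to 1 mouse and the number of mice limits the precision. Pdx1cKO mice carried Elastase-Cre, a Cre recombinase under an elastase promoter, and loxP-flanked Pdx1, the gene of a transcription factor that pancreas formation requires. The controls are labelled as not recombined, and the sources used here do not say which of the 2 alleles they carried, nor the strain or the sex of any mouse. The design asks which transcripts of the exocrine pancreas differ when Pdx1 is removed there.

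The recombinase in this model is driven by a promoter of the same family as the genes described, so the deletion was directed to cells that had begun to use an elastase promoter. Chymotrypsins typically cut proteins after large aromatic or leucine residues, whereas many elastases, though not all, cut after small ones. Both are packed as inactive zymogens into secretory granules. They are released into the duodenum, where trypsin cuts them into active enzymes. Their genes are classical targets of the acinar factor PTF1, a complex of PTF1A, an E protein and RBPJL, which binds an E-box and a nearby TC box.

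All 7 genes were lower in Pdx1cKO pancreata, by amounts that ran over a wide range. Ctrl, the chymotrypsin-like protease, was at 2.06% of the control mean and had the most negative log2 fold change of all genes, and Cela1 was at 4.06% and ranked 4. Cela3b, Cela2a and Cela3a were at 17.0%, 17.3% and 27.8% of the control mean. Ctrb1, the main chymotrypsinogen, was at 40.5% and Ctrc, chymotrypsin C, at 42.9%. In each of the 7 genes every Pdx1cKO array lay below both control arrays, which was the case in 11.7% of all genes (2329 of 19938). At an unadjusted p of 0.05 in limma, 6 of the 7 were lower (all but Ctrc), against 5.04% of all genes (1005). This count was 7 with median scaling, with quantile normalization and without control 2, and 5 with array weights. After Benjamini-Hochberg adjustment over all genes 0 of the 7 passed 0.05, as did 0% of all genes in either direction, the lowest adjusted p of any gene being 0.0802. Student's t-test, the test of the study's methods, also called 6 of the 7 before adjustment (4.05% of all genes) and 0 after it (0.0351%, or 7 genes). An exact two-sided permutation test of 3 against 2 arrays cannot go below p = 0.1. The median log2 fold change of the 7 was -2.53, and that of all genes was 0. It was -2.90 without control 2 and -2.16 without control 1. With a control left out, Cela1 passed after adjustment without control 2 (10.4% of all genes did), and Cela1 and Ctrc without control 1 (8.94%), the remaining control being taken to vary as much as the Pdx1cKO mice do.

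**Figure D1:**
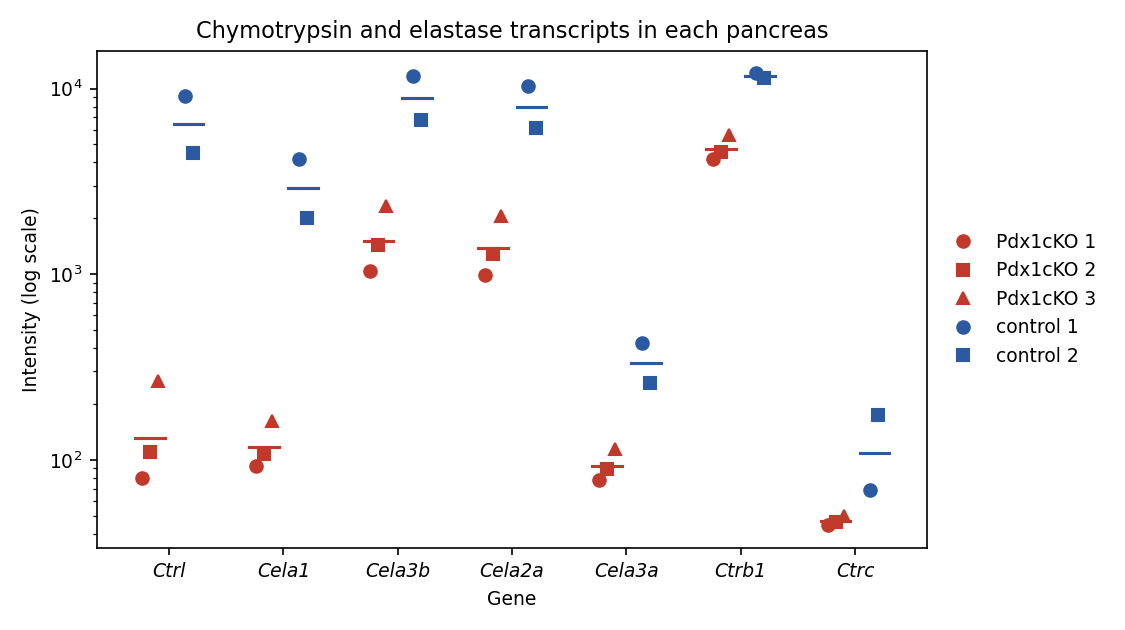
Intensity of the 7 genes (log axis) in each array, with 3 Pdx1cKO mice in red to the left of 2 controls in blue and a bar at each geometric mean. The groups do not overlap in any gene, the smallest gap (0.46 on the log2 scale) being that of Ctrc and the widest (4.09) that of Ctrl.

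Pdx1 itself had intensities of 48.4, 48.4 and 42.9 in Pdx1cKO mice 1, 2 and 3, against 67.9 and 113 in controls 1 and 2. All 3 Pdx1cKO values lay below both controls, with a log2 fold change of -0.91 (SE 0.255, limma adjusted p = 0.385), and whether the probes lie in the deleted part is not given in the sources used here. Array medians were 61.0 to 61.9 in the Pdx1cKO arrays and 61.0 to 61.2 in the controls. Control 2 stood apart: 8 stomach markers summed to 476 to 518 in Pdx1cKO arrays, 410 in control 1 and 11932 in control 2, and intestinal markers to 313 to 429, 331 and 2039 in the same order. All 9 liver markers lay above both controls in every Pdx1cKO array (sums of 14414 to 36632 in Pdx1cKO, against 4991 and 6230 in controls), as did all 8 granulocyte markers (1259 to 3482 in Pdx1cKO, against 418 and 429). Of 7 acinar markers other than the genes described here (4 of them also digestive enzymes listed further on), 6 lay below both controls (8728 to 16109 in Pdx1cKO, against 60572 and 38659), and 7 of 7 islet markers did (4154 to 5375, against 9254 and 8392). Over all genes, 12% lay above both controls in every Pdx1cKO array and 11.7% below both. The lowest intensity on each array was between 18 and 18.26, so no marker could be at 0, and which markers were detected is unknown. In whole tissue, fewer acinar cells and less RNA per acinar cell cannot be told apart, and the part that other tissues had in the values was not tested.

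RefSeq promoters (GRCm38.p6) were found for 6 of the 7 genes, all but Ctrc. Of these, 5 are printed to show the range in number of the E-box CACCTG, a form to which PTF1 binds. Ctrl and Cela3b hold the same number, and Cela2a, with as many as Cela1, is not printed. Each run is the 250 bases before the start site, 5′ to 3′ on the minus strand, and capitals mark CACCTG and TTTCCC, the core of the TC box, on either strand (CAGGTG and GGGAAA on the other).
Ctrl, chr8:105933863-105934112: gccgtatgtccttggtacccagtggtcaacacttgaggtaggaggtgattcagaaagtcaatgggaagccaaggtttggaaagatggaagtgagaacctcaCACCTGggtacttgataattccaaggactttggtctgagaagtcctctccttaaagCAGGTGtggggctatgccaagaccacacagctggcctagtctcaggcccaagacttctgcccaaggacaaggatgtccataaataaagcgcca
Cela1, chr15:100687921-100688170: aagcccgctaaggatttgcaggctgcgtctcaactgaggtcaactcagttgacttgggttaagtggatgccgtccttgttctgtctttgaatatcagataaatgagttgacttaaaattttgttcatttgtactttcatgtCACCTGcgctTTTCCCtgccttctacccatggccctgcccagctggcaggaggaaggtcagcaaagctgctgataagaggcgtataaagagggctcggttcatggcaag
Cela3b, chr4:137430521-137430770: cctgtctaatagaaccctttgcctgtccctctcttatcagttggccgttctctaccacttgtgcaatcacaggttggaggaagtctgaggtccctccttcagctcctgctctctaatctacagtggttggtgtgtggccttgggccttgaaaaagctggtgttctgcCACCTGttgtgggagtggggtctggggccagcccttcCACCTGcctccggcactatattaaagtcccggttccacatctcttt
Cela3a, chr4:137409792-137410041: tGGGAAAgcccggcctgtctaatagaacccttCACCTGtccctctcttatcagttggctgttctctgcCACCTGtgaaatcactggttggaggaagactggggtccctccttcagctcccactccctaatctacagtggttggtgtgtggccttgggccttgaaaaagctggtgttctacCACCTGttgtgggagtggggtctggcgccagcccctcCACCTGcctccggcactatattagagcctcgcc
Ctrb1, chr8:111691011-111691260: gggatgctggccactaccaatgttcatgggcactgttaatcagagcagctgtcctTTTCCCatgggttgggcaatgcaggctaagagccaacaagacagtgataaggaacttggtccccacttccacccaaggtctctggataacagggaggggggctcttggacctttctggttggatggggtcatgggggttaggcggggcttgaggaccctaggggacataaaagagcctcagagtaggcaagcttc

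CACCTG was held by 5 of the 6 promoters, against 17.2% of the 32851 promoters of the table. Ctrl held 2 matches (149 and 93 bases before the start), Cela1 held 1 (at 109), Cela3b 2 (at 83 and 46), Cela2a 1 (at 218) and Cela3a 4 (at 218, 182, 70 and 33). Ctrb1 held 0. At least 2 matches were found in 2.06% of all promoters and at least 4 in 0.0426%. TTTCCC, a motif added after the sequences had been seen, was held by 4 of the 6 (Cela1, Cela2a, Cela3a and Ctrb1), against 21.9% of all promoters, and lay within 30 bases of CACCTG in Cela1 and Cela3a, against 1.02%. The longer TC box TTTCCCA was held by Cela2a, Cela3a and Ctrb1 (6.82% of all promoters), in each within 30 bases of an E-box of the general form CANNTG (1.91%), and TGGGAA, which overlaps TTTCCCA read on the other strand, by Ctrl, Cela2a, Cela3a and Ctrb1 (21.6%). The general E-box CANNTG, which includes CACCTG, was held by 66.2% of all promoters and by all 6 here. Beside their log2 fold changes, Cela3a with 4 matches was at -1.85, Ctrl and Cela3b with 2 at -5.60 and -2.56, Cela1 and Cela2a with 1 at -4.62 and -2.53, and Ctrb1 with 0 at -1.30. Cela3a and Cela3b are neighbours on chromosome 4, and 217 of 237 aligned bases of their promoters (91.6%) were identical. Whether probe sets of such close copies share signal was not tested.

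Among the chymotrypsins, Ctrl, which cuts like chymotrypsin, showed the widest separation. Its intensities were 79.8, 109.9 and 265 in Pdx1cKO mice 1, 2 and 3, against 9140.3 and 4525 in controls 1 and 2. The brightest Pdx1cKO array was far below the dimmer control. Its log2 fold change was -5.60 (SE 0.694, 95% interval -7.60 to -3.61, limma adjusted p = 0.204), a geometric mean 48.5-fold lower than in controls. It was -6.11 without control 2 and -5.09 without control 1. Pdx1cKO mouse 3 kept 3.32 times the intensity of mouse 1, the widest spread between Pdx1cKO mice among the 7 genes.

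Ctrb1, chymotrypsinogen B1, is the bulk chymotrypsin precursor of the mouse pancreas. It had intensities of 4152, 4570.4 and 5636 in Pdx1cKO mice 1, 2 and 3, against 12080.4 and 11366 in controls 1 and 2. The controls were close together, at 1.06-fold from each other, and the Pdx1cKO mice formed a tight group below them. The log2 fold change was -1.30 (SE 0.155, 95% interval -1.75 to -0.86, limma adjusted p = 0.197), or 2.47-fold lower. Without control 2 it was -1.35, the narrowest shift of the 7 between leaving out control 2 and control 1 (-1.26). The highest values on the control arrays were 15581 and 14856, not far above those of Ctrb1, and whether this upper end of the scale narrows its difference was not tested.

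Ctrc, chymotrypsin C, cuts trypsinogen and other proteases and in humans promotes trypsinogen breakdown, and RefSeq lists the gene as a transcribed pseudogene in the reference mouse genome. The intensities were 44.5, 46.3 and 49.9 in Pdx1cKO mice 1, 2 and 3, against 68.5 and 174 in controls 1 and 2. All 3 Pdx1cKO arrays were low and alike, and the distance came mostly from control 2, which carried the stomach transcripts and in which Ctrc was brighter than in control 1 (control 1 had 0.394 times its intensity). The log2 fold change was -1.22 (SE 0.456, 95% interval -2.53 to 0.09, limma adjusted p = 0.515). It was -0.55 without control 2 (limma adjusted p = 0.0792) and -1.89 without control 1 (limma adjusted p = 0.00980). With no detection calls in the files, the distance of Ctrc from background is unknown.

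Cela1, an elastase that also occurs outside the pancreas, was the elastase with the largest difference. Its intensities were 93.3, 107 and 163 in Pdx1cKO mice 1, 2 and 3, against 4186 and 2013 in controls 1 and 2. The groups lay 3.62 apart on the log2 scale at their nearest arrays, a distance above the SD of either group (0.421 in Pdx1cKO and 0.747 in controls). The log2 fold change was -4.62 (SE 0.455, 95% interval -5.93 to -3.32, limma adjusted p = 0.183), or 24.7-fold lower. It was -5.15 without control 2 (limma adjusted p = 0.0276) and -4.10 without control 1 (limma adjusted p = 0.0387).

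Cela3b and Cela2a are abundant elastases of the mouse pancreas and lay almost on top of each other. Cela3b had intensities of 1040.1, 1440.1 and 2319 in Pdx1cKO mice 1, 2 and 3, against 11742 and 6757 in controls 1 and 2. For Cela2a they were 995, 1279.6 and 2062 in Pdx1cKO mice, against 10315 and 6161 in controls. Both genes were lowest in Pdx1cKO mouse 1, and in neither did the groups overlap. The log2 fold change was -2.56 for Cela3b (SE 0.475, 95% interval -3.92 to -1.19, limma adjusted p = 0.271) and -2.53 for Cela2a (SE 0.438, 95% interval -3.79 to -1.27, limma adjusted p = 0.250). The geometric means were 5.88-fold and 5.78-fold lower than in controls. In control 1, Cela3b and Cela2a lay 0.04 and 0.23 below the brightest gene, Ctrb1, on the log2 scale. Whether the upper end of the scale narrows their differences was not tested.

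Cela3a, the neighbour and close copy of Cela3b, had intensities of 78.2, 89.4 and 114 in Pdx1cKO mice 1, 2 and 3, against 426 and 261 in controls 1 and 2. The Pdx1cKO mice were again all below both controls, in a narrower band. Its log2 fold change was -1.85 (SE 0.302, 95% interval -2.71 to -0.98, limma adjusted p = 0.239), or 3.59-fold lower. It was -2.20 without control 2 and -1.49 without control 1, in the same direction with either control.

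**Figure D2:**
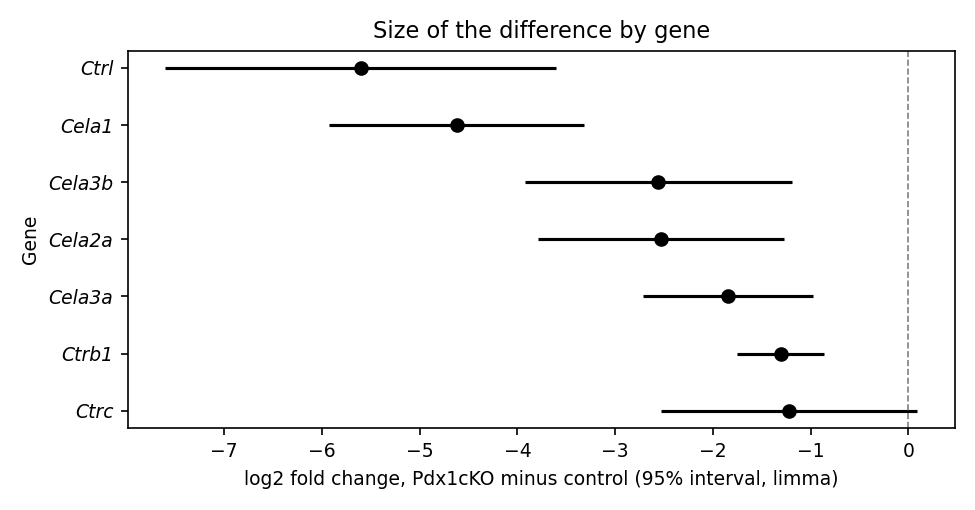
Log2 fold change of each gene, Pdx1cKO minus control, as a point with its 95% interval from limma (3 Pdx1cKO and 2 control arrays) and a dashed line at 0. The points run from -5.60 for Ctrl to -1.22 for Ctrc, and the interval of Ctrc reaches 0.09.

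The order of the 7 differences was examined through differences between pairs of genes within each array, in which anything that shifts a whole array cancels. Of the 21 pairs, the 95% interval left out 0 in 15, and the Pdx1cKO and control arrays did not overlap in 16. Ctrl differed from controls by more than Cela1 did, by -0.98 on the log2 scale (SE 0.321, 95% interval -1.90 to -0.05). Cela1 in turn differed by more than Cela3b did, by -2.07 (SE 0.151, -2.50 to -1.63), the widest step between neighbours in the order. Cela3b and Cela2a were not told apart (-0.03, SE 0.0457, -0.16 to 0.11), so a gap between them beyond 0.16 lies outside the interval. Cela2a differed from controls by more than Cela3a did, by -0.69 (SE 0.175, -1.19 to -0.18). Cela3b also differed by more than its close copy Cela3a, by -0.71 (SE 0.209, -1.31 to -0.11). Cela3a and Ctrb1 did not differ beyond their interval (-0.54, SE 0.212, -1.15 to 0.07), nor did Ctrb1 and Ctrc (-0.08, SE 0.491, -1.49 to 1.33), a difference that was 0.63 without control 1 and -0.80 without control 2. The widest gap to Ctrb1 was that of its fellow chymotrypsin Ctrl, at -4.30 (SE 0.549, 95% interval -5.88 to -2.72). The pairs were chosen with the values known, so no p is given.

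Mouse 3 had the highest value of the 3 Pdx1cKO mice in 7 of the 7 genes, and mouse 1 the lowest in 7, against 27.1% and 25.2% of all genes. This order was not particular to the 7. The 9 other digestive enzymes listed further on summed to 12303, 15127 and 22167 in Pdx1cKO mice 1, 2 and 3, and the acinar markers to 8728, 10951 and 16109. The ratio of mouse 3 to mouse 1 was 3.32 for Ctrl, 2.23 for Cela3b, 2.07 for Cela2a, 1.75 for Cela1, 1.46 for Cela3a, 1.36 for Ctrb1 and 1.12 for Ctrc. The chymotrypsin Ctrl and the paired elastases thus varied more among Pdx1cKO mice than Ctrb1. Pdx1cKO mouse 3 was also the mouse with the smallest liver sum (14414, against 30513 and 36632 in Pdx1cKO mice 1 and 2) and the smallest granulocyte sum (1259, against 2406 and 3482), and the part of these in the spread was not tested. Among controls, 6 of the 7 genes were higher in control 1 than in control 2 (48.4% of all genes), from 1.06-fold for Ctrb1 to 2.08-fold for Cela1, and Ctrc was the exception. The sum of the 9 other digestive enzymes was also higher in control 1 (66683, against 45649).

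The 7 genes were also set against other digestive enzymes of the same tissue. The comparison subtracts, within each array, the median log2 intensity of 9 other digestive enzymes and sets the control mean to 0. The 9 are carboxypeptidases, lipases and colipase, phospholipase, the amylase Amy1 and ribonuclease. Ctrl lay at -4.08, -4.02 and -3.27 in Pdx1cKO mice 1, 2 and 3, against 0.20 and -0.20 in the controls, a difference of -3.79. Cela1 lay at -2.71, -2.91 and -2.82 in Pdx1cKO mice, against 0.22 and -0.22 in controls, a difference of -2.81. Both lay further from controls than the median of the 9 enzymes, in every Pdx1cKO array.

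Cela3b and Cela2a lay below the median of the 9 by smaller amounts, with differences of -0.75 and -0.72 and no overlap between groups. Cela3a was close to that median, at -0.04, with overlap between groups. Ctrb1 was at 0.75, 0.49 and 0.27 in Pdx1cKO mice 1, 2 and 3 against -0.26 and 0.26 in controls, a difference of 0.51 that was 0.77 without control 2 and 0.24 without control 1. Its groups were separated only narrowly, by 0.27 in Pdx1cKO mouse 3 against 0.26 in control 2. Ctrc, at 0.59, overlapped between groups, and was at 1.57 without control 2 and -0.39 without control 1. With the 5 genes of fat digestion (lipases, phospholipase and colipase) as the yardstick in place of all 9, every value lay lower, from -4.15 for Ctrl to 0.23 for Ctrc, and Ctrb1 was at 0.14.

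**Figure D3:**
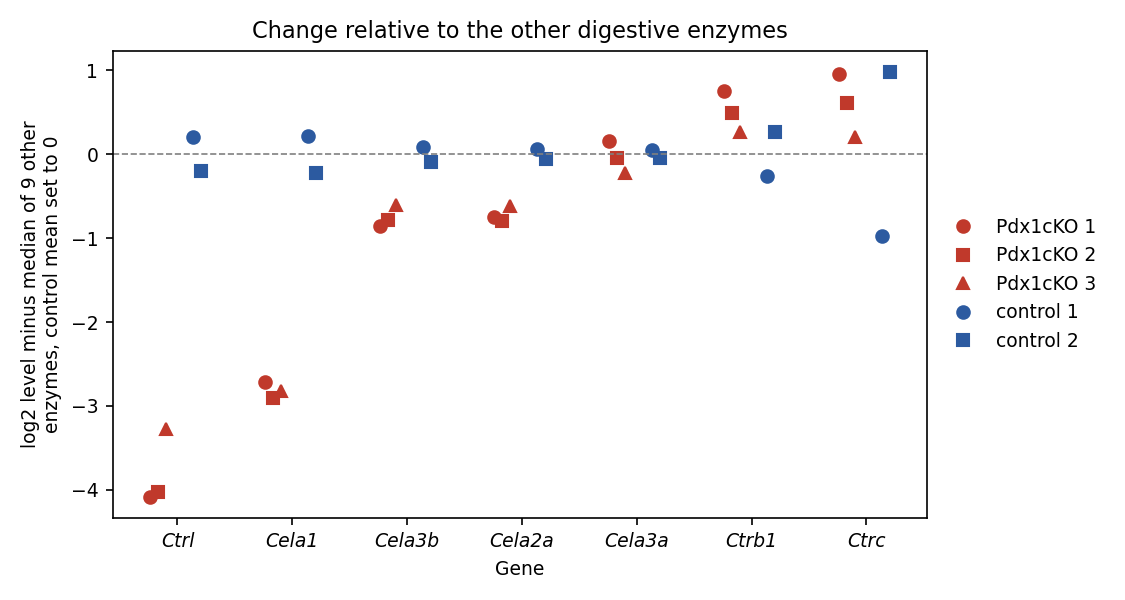
Log2 intensity of each gene minus the median of 9 other digestive enzymes in the same array, with the control mean set to 0 (dashed line), for 3 Pdx1cKO mice in red and 2 controls in blue. Ctrl and Cela1 lie between -4.08 and -2.71 in Pdx1cKO mice, whereas Cela3a straddles 0 and Ctrb1 lies between 0.27 and 0.75.

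The genes with the profile most like each member, by Euclidean distance between log2 profiles centred over the 5 arrays, are given as a description. For Ctrl they were Pnliprp2, a lipase-related protein that digests milk fat, at a distance of 0.63, Sycn (syncollin, a zymogen granule protein) at 0.69 and Cela1 at 1.27. Cela1 was nearest to Sycn (0.58), to the granule lectin Zg16 (0.65) and to Dmbt1, a secreted glycoprotein (0.68). Only 3 genes had a log2 fold change below that of Cela1: Ctrl, Pnliprp2 at -5.40 and Sycn at -5.06. Tff2, the trefoil peptide to which the study turned, ranked 6, at -4.46, with intensities of 101, 116 and 171 in Pdx1cKO mice against 2649 and 2897 in controls.

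Cela3b and Cela2a were each other's nearest gene, at a distance of 0.10, followed in both by 2210010C04Rik (0.28 and 0.25) and the trypsinogen Prss2 (0.44 and 0.40). Cela3a was nearest to the trypsinogen Try10 (0.19), to the ribonuclease Rnase1 (0.31) and to Cpb1, carboxypeptidase B (0.39). Ctrb1 was nearest to Rap1gap2, which switches off the small GTPase Rap1 (0.24), to Glp1r, the receptor of the hormone GLP-1 (0.24), and to the lipase-related Pnliprp1 (0.34). The genes nearest to Ctrc were Tc2n (0.21), the phospholipid flippase Atp8b1 (0.26) and Tprg (0.30). Tc2n had intensities of 71.3, 86.6 and 93.2 in Pdx1cKO mice against 114 and 289 in controls 1 and 2, and Atp8b1 had 116, 143 and 131 against 170.1 and 501. Both shared with Ctrc a high value in control 2, the array with stomach transcripts such as Gkn2, a gastric mucosal protein (25.1, 25.9 and 26.4 in Pdx1cKO mice, 26.4 in control 1 and 3014 in control 2).

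The proteins that switch chymotrypsins and elastases on or hold them in check differed in both directions. Of 14 measured genes of 19 listed for zymogen activation and inhibition, 9 were lower and 2 higher at an unadjusted limma p of 0.05 (5.04% and 5.29% of all genes), 0 passed after adjustment, and the median log2 fold change was -2.05, against 0 for all genes. The trypsinogens, whose product trypsin activates the chymotrypsin and elastase zymogens, were all on the lower side: Prss3 at -3.50, Gm5771 at -3.28, Try4 at -3.06, Prss2 at -2.72, Try5 at -2.23 and Try10 at -1.86. Serpini2, a serpin of acinar cells, had 22.6, 23.4 and 23.3 in Pdx1cKO mice 1, 2 and 3 against 982 and 307 in controls, a log2 fold change of -4.57. Spink1, the trypsin inhibitor packed with the zymogens, had 76.6, 114 and 186 in Pdx1cKO mice against 1653 and 1093 in controls, at -3.52. The Serpini2 values of all 3 Pdx1cKO mice were near the dim end of their arrays, whose lower quartiles were 31.2 to 31.4. Without control 2, 9 genes of the list were lower and 0 higher before adjustment (18.5% and 10.4% of all genes), and 8 were lower after it (10.4%). Without control 1, 10 were lower before adjustment (15.1%) and 7 after it (8.94%).

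Of the inhibitors that circulate in blood, Serpina1c, Serpina1d (1.69) and A2m lay above both controls in every Pdx1cKO array, whereas Mug1 overlapped. Serpina1c, an alpha-1-antitrypsin made by liver and an inhibitor of elastases, had 527, 850.3 and 118 in Pdx1cKO mice 1, 2 and 3 against 38.8 and 34.0 in controls, a log2 fold change of 3.37 (limma adjusted p = 0.411), and A2m, a broad protease trap, was at 2.85. Both were lowest among Pdx1cKO mice in mouse 3, as was the sum of the liver markers, whose part in them was not tested. The genes of this list that differed least were Tmprss15, the intestinal enteropeptidase that activates trypsinogen, at -0.22, and the murinoglobulin Mug1 at 0.35, both overlapping between groups.

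Of 9 measured genes of 14 listed for other digestive enzymes, 8 were lower and 0 higher before adjustment (5.04% and 5.29% of all genes), 0 after it, with a median log2 fold change of -1.59. Before adjustment, 7 were lower without control 2 (18.5% of all genes) and 4 without control 1 (15.1%). Pnliprp2 had 59.3, 67.7 and 132 in Pdx1cKO mice against 5978 and 1955 in controls. Pla2g1b, the secreted pancreatic phospholipase, was at -3.09, the carboxypeptidase Cpa1 at -2.07 and Rnase1 at -2.04, while Pnliprp1 at -1.39 and the amylase Amy1 at -0.40 differed least. Amy1 was the only amylase measured, with intensities of 50.1 to 97.9 over all arrays, and the listed Amy2a5 and Amy2b were not measured. The range of these enzymes, from -5.40 to -0.40, takes in every chymotrypsin and elastase except Ctrl. Without Amy1 it ends at -1.39, short of Ctrb1 at -1.30 and Ctrc at -1.22.

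Among the proteases that white blood cells make, the neutrophil elastase Elane and the chymotrypsin-like Ctsg were higher in Pdx1cKO pancreata. Others, Mcpt1 and Mcpt8 among them, overlapped between groups. Of 16 leukocyte proteases, 6 were higher and 0 lower before adjustment (5.29% and 5.04% of all genes), 0 after it, with a median log2 fold change of 0.57, and 8 lay above both controls in every Pdx1cKO array (12% of all genes). Before adjustment, 3 were higher and 3 lower without control 2 (10.4% and 18.5% of all genes), with a median of 0.28. Without control 1, 7 were higher and 1 lower (14.8% and 15.1%), with a median of 0.85. After adjustment, 1 was higher and 2 lower without control 2 (4.99% and 10.4% of all genes), and 3 were higher and 1 lower without control 1 (8.04% and 8.94%). Elane, the neutrophil elastase, had 268, 467 and 139 in Pdx1cKO mice 1, 2 and 3 against 65.1 and 76.0 in controls, at 1.88 (SE 0.593, limma adjusted p = 0.436). Ctsg, cathepsin G, a neutrophil protease with chymotrypsin-like cutting, had 101, 124 and 75.2 in Pdx1cKO mice against 28.7 and 28.3 in controls, at 1.79 (SE 0.245, limma adjusted p = 0.225). In each the values of the groups did not overlap, and both followed the order of the granulocyte sums among Pdx1cKO mice, a list that holds Elane itself. The part of granulocytes in them was not tested. Cpa3, a mast cell carboxypeptidase and no serine protease, was at 1.31 and Prtn3, proteinase 3, at 1.08. The mast cell proteases Mcpt4 at 1.04 and Cma1 at 0.74 also lay above both controls in every Pdx1cKO array. Tpsab1 at 0.84, Tpsb2 at 0.69 and Mcpt2 at -0.09 overlapped between groups. The mast cell and basophil proteases Mcpt1 at -0.04 and Mcpt8 at 0.03 differed least. Both were dim in all arrays (21.3 to 22.5 and 28.2 to 31.5), near or below the lower quartiles of 31.2 to 31.9.

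Of 9 measured acinar transcription factors of 10 listed, 4 were lower and 1 higher before adjustment (5.04% and 5.29% of all genes), 0 after it, with a median log2 fold change of -0.54. Bhlha15, which builds the secretory apparatus, was at -1.84, Rbpjl, the acinar subunit of PTF1, at -1.20 and the nuclear receptor Nr5a2 at -1.14. Gata4, a zinc finger factor, had 122, 122 and 116 in Pdx1cKO mice against 214 and 269 in controls. Ptf1a had 42.3, 43.6 and 47.2 in Pdx1cKO mice 1, 2 and 3 against 74.3 and 55.7 in controls, at -0.54. The E protein Tcf3 was at 0.28, and Rbpj at 0.05 and Tcf12 at 0.06 differed least. After adjustment, 5 of the 9 were lower without control 2 (10.4% of all genes, median -0.74) and 1 without control 1 (8.94%, median -0.33). None of the factors was as far from controls as Ctrl, Cela1 or the elastase pair. Bhlha15 was about as far as Cela3a (-1.85) and further than Ctrb1 (-1.30) and Ctrc (-1.22). Its intensities were 61.6, 53.6 and 46.4 in Pdx1cKO mice 1, 2 and 3, with an unknown distance from background.

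**Figure D4:**
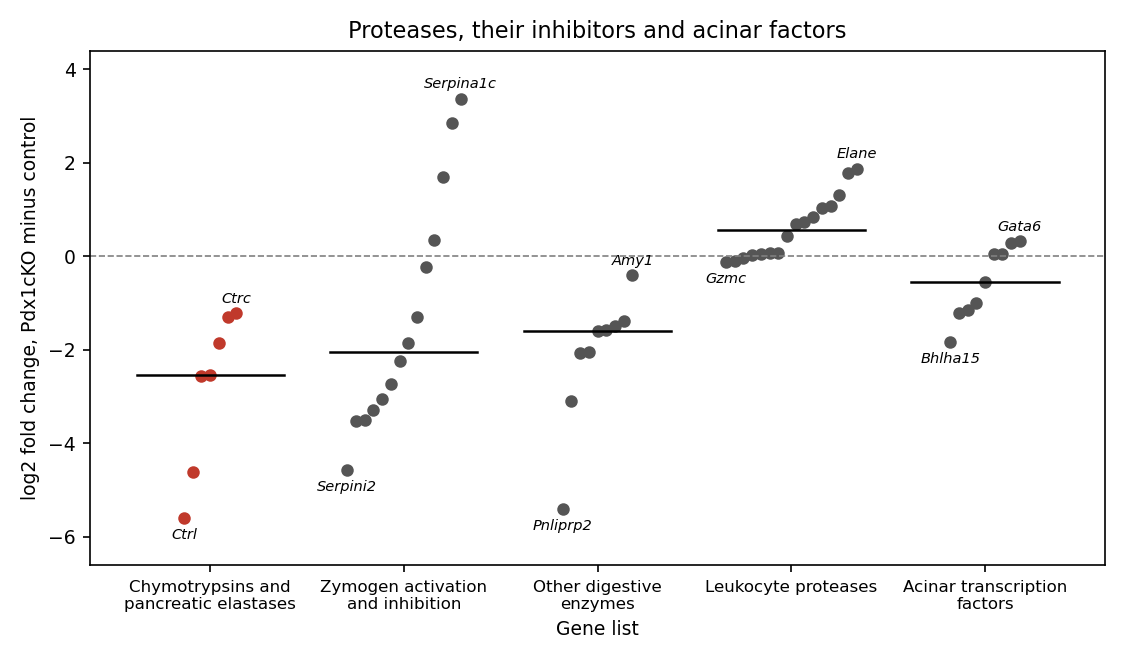
Log2 fold change (Pdx1cKO minus control, 3 and 2 arrays) of every measured gene in 5 lists, 1 point a gene, with a bar at each median and a dashed line at 0. The 7 chymotrypsins and elastases in red have a median of -2.53, and the leukocyte proteases 0.57.

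The genes beside the 7 on their chromosomes were examined after the values above had been seen. Ctrl and Ctrb1 lie on chromosome 8, Cela1 on chromosome 15, and Cela2a, Ctrc, Cela3a and Cela3b on chromosome 4 as 2 adjacent pairs. The log2 fold changes of 10 flanking genes outside the family ran from -0.48 (Efhd2) to 0.25 (Bin2), with a median of -0.01. Before adjustment, 1 of the 10 was lower (5.04% of all genes) and 0 higher (5.29%). The 1 was Psmb10, a proteasome subunit next to Ctrl, at -0.24, with intensities of 169.8, 182 and 179.6 in Pdx1cKO mice against 215 and 204 in controls. Next to Cela1, Galnt6, which starts mucin-type glycans, was at -0.38, and beside Ctrb1 the adaptor gene Bcar1 was at -0.04. Psmb10, Galnt6 and Efhd2, 3 of the 10, lay below both controls in every Pdx1cKO array (11.7% of all genes). Bin2 lay above both (12%). None of the 10 differed by as much as Ctrc, the member with the smallest difference.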

How the data were processed

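Total RNA of whole pancreas at postnatal day 1 from 3 Pdx1cKO and 2 control mice was hybridised to Mouse Gene 1.0 ST arrays, and samples were grouped by the genotype that their labels give. The deposited values are linear intensities of 28853 probe sets that the authors made with GeneSpring GX 12.1. How background was corrected, arrays were scaled and probes were summarised is not given in the sources used here, and detection calls were not used here. Exact ties between arrays occurred in 67.7% of probe sets, and 3124 genes were identical in the 3 Pdx1cKO arrays.

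Log2 was taken with no pseudocount or scaling. Probe sets with 1 symbol in the platform annotation (21789; 1621 had several and 5443 are unnamed here) were averaged into 19938 genes with Python 3.11.15 and pandas 2.3.3. Of these probe sets, 21698 matched RefSeq (GRCm38.p6), which changed 0 symbols. Each of the 7 genes had 1 probe set. Groups were compared with limma 3.58.1 in R 4.3.3 (lmFit, eBayes), adjusted over all genes by Benjamini-Hochberg at 0.05, after the step had been tested on simulated data. Differences between pairs of genes used within-array log2 differences with the prior of the fit over all genes. Promoter motifs were searched in the RefSeq promoter table on both strands.

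Named are the 7 genes, per list the 4 genes with the largest and the 2 with the smallest absolute log2 fold change, the 3 nearest genes of each member and a gene the paper names. Other genes named, among them the remaining trypsinogens, A2m and the flanking genes, were chosen after their values were seen. Members and lists were chosen with earlier results of these data known. Alternatives were median scaling, quantile normalization, a filter on dim genes, every or the brightest probe set, trend and robust settings, array weights, Student's t-test, a replicate block and leaving out each array; the gene lists without a control and the motif TTTCCC were added after seeing the data. P-values measure only the spread between these mice.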

Additional observations from a re-analysis of the deposited data

How the results depend on the processing

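No direction changed in any of the 7 genes under any alternative. Log2 fold changes ran from -6.11 to -5.09 for Ctrl, -5.15 to -4.10 for Cela1, -2.95 to -2.16 for Cela3b, -2.90 to -2.16 for Cela2a, -2.20 to -1.49 for Cela3a, -1.43 to -1.05 for Ctrb1 and -1.89 to -0.55 for Ctrc. The count of the 7 that passed adjustment was 0 with all arrays and 0 to 2 with 1 array left out: Cela1 and Ctrc without control 1, and Cela1 without control 2. Over all genes the count lower after adjustment was then 0 to 2072 (1783 without control 1 and 2072 without control 2), and before adjustment 638 (without Pdx1cKO mouse 1) to 3694 (without control 2; 3013 without control 1). The median of the 7 ran from -2.90 to -2.16. Genes lower before adjustment numbered 391 with array weights and 605 with the replicate number as a block, against 1005, and the methods' t-test called 7 lower after adjustment. Among genes above the median level 501 were lower, but fewer genes were tested there, so this count cannot be set against 1005. With the replicate block 0 of the 7 passed after adjustment and 6 before it, with a median of -2.82. Before adjustment, array weights left out Cela3b and Cela2a and took in Ctrc, and without control 1 Cela3b was left out and Ctrc taken in. Ctrc was also called with median scaling, with quantile normalization and without control 2. The gap between Cela3a and Ctrb1 was -0.23 without control 1, -0.85 without control 2 and -0.83 after quantile normalization, and that between Cela2a and Cela3a was -0.37 after it. Same-numbered arrays did not deviate together (correlations of 0.03 and -0.00), and only 2 numbers are shared. Array weights were 4.36, 3.02 and 1.72 for Pdx1cKO mice and 0.21 for each control. A probe set with several symbols held none of the 7, so that alternative gave no value, and Ctrc was below the filter on dim genes. No probe has a known distance from background, which limits the folds of all genes that are dim in Pdx1cKO arrays, Ctrl, Cela1, Cela3a and Ctrc among them.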
